A study of Arabidopsis thaliana with 9 samples.

Results

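The WRKY transcription factors of group III were followed in Arabidopsis leaves over the hour after wounding. The 6 genes WRKY30, WRKY41, WRKY46, WRKY53, WRKY54 and WRKY70 were taken from the count table by their locus identifiers, and all 6 were found among its 27206 genes. All leaves came from soil-grown, short-day plants of Arabidopsis thaliana, ecotype Col-0, genotype wild-type, and the labels list no transgene and no other treatment. Leaves harvested prior to the treatment (time 0) were compared with leaves harvested 30 min and 60 min after it, each as 3 biological replicates. The labels give neither plant age nor the way of wounding. Unwounded leaves of the later times are not among the samples, so wounding and time of day cannot be told apart.

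WRKY proteins are plant transcription factors named after the conserved amino acids of their DNA-binding domain, and they bind the W-box, a short element with the core TTGAC. Group III proteins carry a single such domain with a zinc finger of the C2HC type. In Arabidopsis leaves the group is known from defence controlled by salicylic acid, from the antagonism between salicylic acid and jasmonate, and from leaf senescence. Jasmonate is the main hormone of the leaf wound response.

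WRKY genes are themselves known targets of WRKY proteins, and the called changes differed among the 6 genes. The stretches of 250 bases before their annotated starts are therefore shown. They were read from the RefSeq TAIR10.1 genome with its own annotation and lie at chr5:8154711-8154960 on the minus strand for WRKY30, chr4:6758848-6759097 on the plus strand for WRKY41, chr2:19044956-19045205 on the minus strand for WRKY46, chr4:12393983-12394232 on the minus strand for WRKY53, chr2:17002529-17002778 on the minus strand for WRKY54 and chr3:20910624-20910873 on the minus strand for WRKY70. Each is printed 5′ to 3′ on the strand of its gene. Capitals mark a W-box (TTGACC or TTGACT) or the motif TGACG, the core of sites bound by TGA factors, on either strand.
WRKY30: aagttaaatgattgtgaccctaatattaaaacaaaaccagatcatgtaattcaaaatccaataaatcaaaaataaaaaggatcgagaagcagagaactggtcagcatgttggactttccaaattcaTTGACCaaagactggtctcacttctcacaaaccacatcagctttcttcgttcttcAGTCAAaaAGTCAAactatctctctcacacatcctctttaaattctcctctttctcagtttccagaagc
WRKY41: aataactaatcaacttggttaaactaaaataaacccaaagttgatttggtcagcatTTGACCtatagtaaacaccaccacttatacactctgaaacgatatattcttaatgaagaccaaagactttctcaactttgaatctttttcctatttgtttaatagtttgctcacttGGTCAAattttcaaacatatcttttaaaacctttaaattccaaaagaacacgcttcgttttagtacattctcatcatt
WRKY46: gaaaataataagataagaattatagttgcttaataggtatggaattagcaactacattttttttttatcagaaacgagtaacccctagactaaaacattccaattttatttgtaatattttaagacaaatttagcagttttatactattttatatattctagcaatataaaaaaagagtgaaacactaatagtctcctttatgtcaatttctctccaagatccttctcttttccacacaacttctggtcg
WRKY53: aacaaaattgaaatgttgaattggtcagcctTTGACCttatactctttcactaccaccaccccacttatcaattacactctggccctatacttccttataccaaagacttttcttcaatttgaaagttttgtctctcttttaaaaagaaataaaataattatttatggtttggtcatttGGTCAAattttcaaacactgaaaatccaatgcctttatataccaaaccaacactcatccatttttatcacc
WRKY54: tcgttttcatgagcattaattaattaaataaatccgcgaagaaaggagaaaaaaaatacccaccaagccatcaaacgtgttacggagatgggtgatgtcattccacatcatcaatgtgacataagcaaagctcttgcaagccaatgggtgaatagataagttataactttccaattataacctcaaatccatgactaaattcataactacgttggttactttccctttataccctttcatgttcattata
WRKY70: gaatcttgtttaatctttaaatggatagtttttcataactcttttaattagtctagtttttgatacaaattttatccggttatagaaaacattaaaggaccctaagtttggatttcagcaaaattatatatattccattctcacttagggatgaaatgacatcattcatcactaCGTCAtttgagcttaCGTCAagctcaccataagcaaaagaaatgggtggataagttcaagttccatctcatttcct

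WRKY30 held 3 W-boxes in this stretch, and WRKY41 and WRKY53 held 2 each. In WRKY41 and WRKY53 the W-box nearest to the start stood on the opposite strand, at bases -78 to -73 and -71 to -66 from the start. That W-box lay in both genes within a run of 19 identical bases, ttggtcaaattttcaaaca, the longest run shared by any pair of the 6 stretches. The other 14 pairs shared 7 to 11 bases. WRKY46, WRKY54 and WRKY70 held no W-box of these letters in this window, and WRKY70 held TGACG at -76 to -72 and at -61 to -57, both on the opposite strand. The core TTGAC with another base after it was present on the opposite strand in WRKY46 (tgtcaa) and in WRKY70 (CGTCAa). In WRKY70 it overlaps the TGACG at -61 to -57. Such cores were not searched for or counted. Counted from 250 bases before to 50 bases after the start, 3 of the 6 members held TTGACC or TTGACT, against 32.4% of 27443 nuclear protein-coding genes. TGACG was held by 1 of the 6, against 23.1%. None of the 6 held the G-box CACGTG (7.7% of all promoters) or the stress element CGCGTT (3.4%). A match is a run of letters and not a measured binding site.

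**Figure D1:**
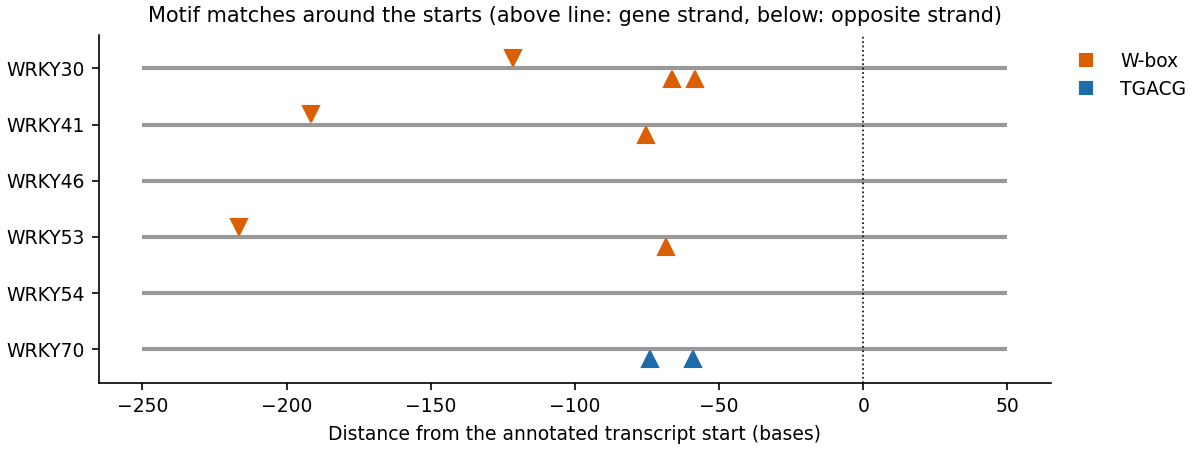
Positions of W-box (TTGACC or TTGACT, orange) and TGACG (blue) matches from 250 bases before to 50 bases after the annotated start of each gene, with the distance from the start in bases on the x axis. Triangles above a line are on the strand of the gene and those below it on the opposite strand. WRKY46 and WRKY54 show no match of these letters.

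Sequencing depth was 14300929 counts in 30 min replicate 1 and 22072126 to 22970735 in the other 8 libraries. A count of 3, taken as the detection floor, was worth 0.114 to 0.209 CPM, the usual scale of counts set against the total of their library, here with totals scaled by TMM factors. The leaf markers LHCB1.3, LHCB1.1, LHCA1 and RBCS1A were abundant in all 9 libraries, with group means of 11946 to 77535 CPM, while 6 markers of root hair, flower and seed had at most 9 counts in any library. The 6 WRKY genes were far lower, from 2 counts in a library for WRKY54 to 372 for WRKY70, and counting error alone is large for all but WRKY70. In a bulk leaf sample, fewer cells that express a gene and less of its RNA per cell cannot be told apart. All 6 genes passed the filter on low counts.

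The called changes differed among the 6 genes, and differences between the genes were not tested. WRKY46 rose by 30 min and was back near its earlier level at 60 min, WRKY54 rose by 30 min and was higher still in its mean at 60 min, and no change passed the test for WRKY30, WRKY41, WRKY53 or WRKY70. Set against time 0, 2 of the 6 members were higher at 30 min and 0 were lower (quasi-likelihood test of edgeR, adjusted p under 0.05), while 28.0% of the 17622 genes tested were called in either direction and 14.5% were called higher. At 60 min 1 of the 6 was higher and 0 were lower, against 32.4% called in either direction, 17.1% higher. Between 30 and 60 min 1 of the 6 fell and 0 rose, against 2.02% called in either direction, 0.721% higher and 1.3% lower. In the F test over all 3 times 2 of the 6 were called, WRKY46 and WRKY54, against 32.1%. The CPM values of the groups did not overlap for 2 higher members at 30 min and 1 at 60 min, where 21.8% and 24.8% of all genes tested were higher without overlap. No member was lower without overlap at either time, against 21.5% and 22.5%. Between 30 and 60 min 0 members were higher and 2 were lower without overlap, against 8.18% and 8.03%. At an unadjusted p under 0.05 the counts were 2, 2 and 1 of 6 members, against 38.5%, 42.6% and 12.5% of all genes tested. The median log2 change of the 6 genes was 0.73 at 30 min, -0.13 at 60 min and -0.50 between them, beside 0.02, 0.06 and 0.02 over all genes tested. With totals not scaled by TMM factors the median of all genes tested was 0.12 at 30 min and 0.28 at 60 min, and the share of higher genes among those called at 60 min was 70.9% in place of 52.9%, and between 30 and 60 min it was 50.8% in place of 35.7%. None of the 6 genes changed its direction with that scaling.

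**Figure D2:**
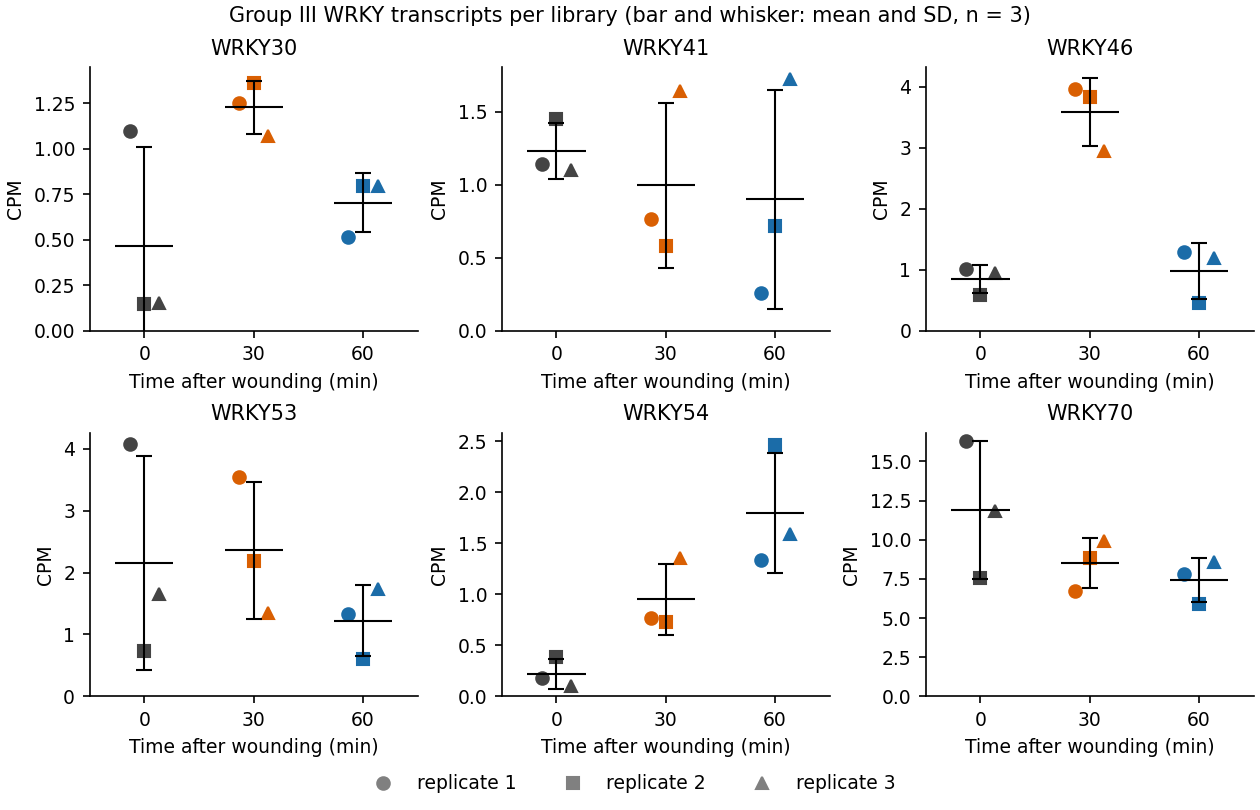
Level of each gene in CPM (y axis, linear and from 0, with its own scale in each panel) in each of the 9 libraries against time after wounding in min, with the mean and SD over 3 libraries in black (the lower whisker of WRKY30 before wounding is cut at 0). The 30 min libraries of WRKY46 sit between 2.96 and 3.97 CPM, above all other libraries of that gene.

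**Figure D3:**
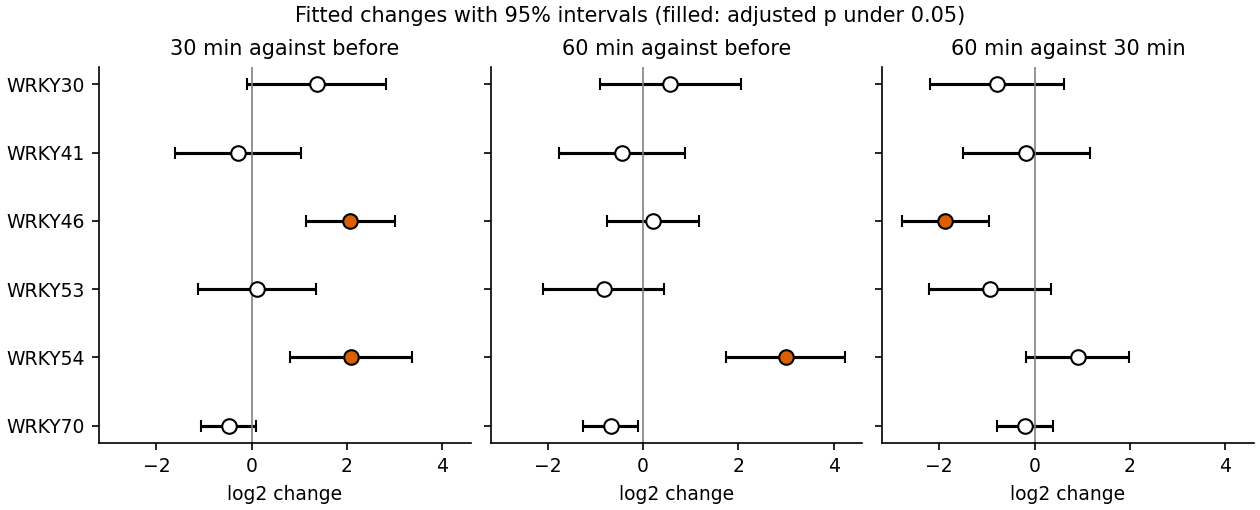
Fitted log2 change of each gene in the 3 comparisons (x axis) with its 95% interval, filled where the adjusted p was under 0.05. WRKY46 and WRKY54 are filled at 30 min, WRKY54 alone at 60 min, and WRKY46 alone between 30 and 60 min.

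WRKY70 (AT3G56400) is known as a node between the hormones of defence, favouring genes induced by salicylic acid and holding down genes induced by jasmonate, and as a brake on leaf senescence. It stood at 16.3, 7.54 and 11.8 CPM in replicates 1, 2 and 3 before wounding. The 30 min leaves gave 6.75, 8.84 and 9.89 CPM and the 60 min leaves 7.80, 5.91 and 8.59 CPM. The groups overlapped, since before-wounding replicate 2 lay within the range of the wounded leaves, while replicates 1 and 3 lay above it. The log2 change was -0.48 at 30 min (SE 0.27, edgeR adjusted p 0.204) and -0.68 at 60 min (SE 0.27, adjusted p 0.0671), and neither passed the threshold. The 95% interval of the 60 min change ran from -1.26 to -0.11 before adjustment over all genes. DESeq2 gave -0.70 with an adjusted p of 0.0491, and the 60 min change was -0.94 without before-wounding replicate 2 (edgeR adjusted p 0.0186) and -0.38 without before-wounding replicate 1 (0.313).

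WRKY54 (AT2G40750) is the close relative of WRKY70 and acts with it against senescence. Its counts before wounding were 4, 8 and 2, near the detection floor, which is 0.175, 0.387 and 0.10 CPM. It reached 0.766, 0.728 and 1.35 CPM at 30 min and 1.34, 2.46 and 1.59 CPM at 60 min. All 6 libraries from wounded leaves lay above all 3 from before wounding, and the 30 min and 60 min ranges met, with 1.35 CPM as the highest value at 30 min and 1.34 CPM as the lowest at 60 min. The log2 change was 2.09 at 30 min (SE 0.60, edgeR adjusted p 0.0181) and 3.00 at 60 min (SE 0.58, adjusted p 0.0015), a fold of 4.27 and 7.98. The further change from 30 to 60 min was 0.90 (SE 0.50, adjusted p 0.517), with a 95% interval of -0.18 to 1.98. The 30 min call was lost without before-wounding replicate 1 (adjusted p 0.0631), before-wounding replicate 3 (0.0787) or 30 min replicate 3 (0.0737), and the 60 min call was kept whichever library was left out (adjusted p at most 0.0108). WRKY55 (AT2G40740), another group III gene and the neighbour of WRKY54 on the chromosome, had 0 to 3 counts in each library, so a change in it was not detectable at this depth.

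WRKY46 (AT2G46400) is known from basal defence and from responses to osmotic stress and aluminium. The time 0 libraries held 1.01, 0.580 and 0.954 CPM. Values of 3.97, 3.84 and 2.96 CPM followed at 30 min, and of 1.29, 0.455 and 1.2 CPM at 60 min. The 30 min libraries did not overlap with either of the other groups, and the 60 min libraries spread on both sides of the range before wounding. The log2 change was 2.07 at 30 min (SE 0.44, edgeR adjusted p 0.0030), a fold of 4.19, and was called whichever library was left out (adjusted p at most 0.020). The change at 60 min was 0.20 (SE 0.45, adjusted p 0.769), with a 95% interval of -0.77 to 1.16. The direct comparison of 60 min with 30 min gave a fall of 1.87 on the log2 scale, written as -1.87 (SE 0.43, adjusted p 0.0391), or 3.65-fold. That call lay close to the threshold. It was lost with the totals not scaled by TMM factors (adjusted p 0.0562), with only the groups compared in the fit (0.0661), and without 30 min replicate 1 (0.149), 30 min replicate 2 (0.11), 60 min replicate 1 (0.086), 60 min replicate 2 (0.0906), before-wounding replicate 2 (0.051) or before-wounding replicate 3 (0.0613), while the size of the fall ran from 1.52 to 2.12. DESeq2 gave -1.89 with an adjusted p of 0.00187.

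WRKY53 (AT4G23810) promotes leaf senescence. Before wounding its replicates held 4.08, 0.725 and 1.66 CPM. They held 3.55, 2.18 and 1.35 CPM at 30 min and 1.34, 0.606 and 1.73 CPM at 60 min. The groups overlapped at all 3 times, and the libraries from before wounding alone spanned most of the range of the gene. The log2 change was 0.11 at 30 min (SE 0.58, edgeR adjusted p 0.917) and -0.83 at 60 min (SE 0.59, adjusted p 0.307). The 95% intervals, -1.14 to 1.35 and -2.10 to 0.44, include changes of 2-fold in either direction at 30 min and falls of over 4-fold at 60 min. Without before-wounding replicate 1 the changes were 0.97 (adjusted p 0.268) and 0.03 (0.976).

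WRKY41 (AT4G11070), the gene that shares its upstream run with WRKY53, is known from responses to bacterial flagellin and from seed dormancy. Its time 0 values were 1.14, 1.45 and 1.1 CPM. The 30 min values were 0.766, 0.583 and 1.64 CPM, and those of 60 min were 0.259, 0.720 and 1.73 CPM. After wounding replicate 3 was the highest library at both times and lay above all libraries from before wounding, while the others lay below them. The log2 change was -0.28 at 30 min (SE 0.62, edgeR adjusted p 0.777) and -0.45 at 60 min (SE 0.61, adjusted p 0.612), with 95% intervals of -1.61 to 1.04 and -1.77 to 0.87. In the TAIR10.1 annotation the exons of WRKY41 and WRKY53 overlap those of genes on the opposite strand, AT4G11080 by 491 bases and AT4G23800 by 311 bases. Only 57.1% of the 50-base stretches in the exons of WRKY41 and 81.5% of those of WRKY53 occur in no other gene, the rest being shared with that partner alone, and whether the counting used strand is not given in the sources used here. The partners had 38 to 151 counts (AT4G11080) and 46 to 104 counts (AT4G23800) in the 9 libraries and no called change in any comparison, and their part in the values of WRKY41 and WRKY53 was not tested. The exons of WRKY30, WRKY46, WRKY54 and WRKY70 shared no 50-base stretch with another gene.

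WRKY30 (AT5G24110) is known from tolerance of oxidative stress. Counts of 25, 3 and 3 before wounding correspond to 1.1, 0.145 and 0.151 CPM. The level was 1.25, 1.36 and 1.07 CPM in the 30 min replicates and 0.517, 0.796 and 0.797 CPM in the 60 min replicates. Before-wounding replicate 1 lay among the 30 min libraries, and the other libraries from before wounding were at the detection floor. The log2 change was 1.36 at 30 min (SE 0.68, edgeR adjusted p 0.159) and 0.57 at 60 min (SE 0.69, adjusted p 0.565), with 95% intervals of -0.11 to 2.83 and -0.92 to 2.05. Without before-wounding replicate 1 the changes were 3.00 (adjusted p 0.0073) and 2.21 (0.0319), both past the threshold, so this single library decides the call. Each 60 min library lay below each 30 min library, and the change between these times was -0.79 (SE 0.65, adjusted p 0.716).

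Before-wounding replicate 1 was the highest of its group for 4 of the 6 members, all except WRKY41 and WRKY54, and for 37.1% of all genes tested. It was also the highest for 5 of 6 genes of group IIa and the WRKY33 relatives. WRKY33 had 934 counts in it against 305 and 281 in the other libraries from before wounding, and WRKY40 had 188 against 65 and 88. Both genes overlap annotated genes of the other strand. The part of this library's state in the results was not tested beyond leaving it out. Without it the number of members called at 30 min was still 2, WRKY30 and WRKY46 in place of WRKY46 and WRKY54, and at 60 min it was 2, WRKY30 and WRKY54. Over all genes that fit called 4221 at 30 min and 4916 at 60 min, where the fit of all 9 libraries called 4930 and 5704.

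**Figure D4:**
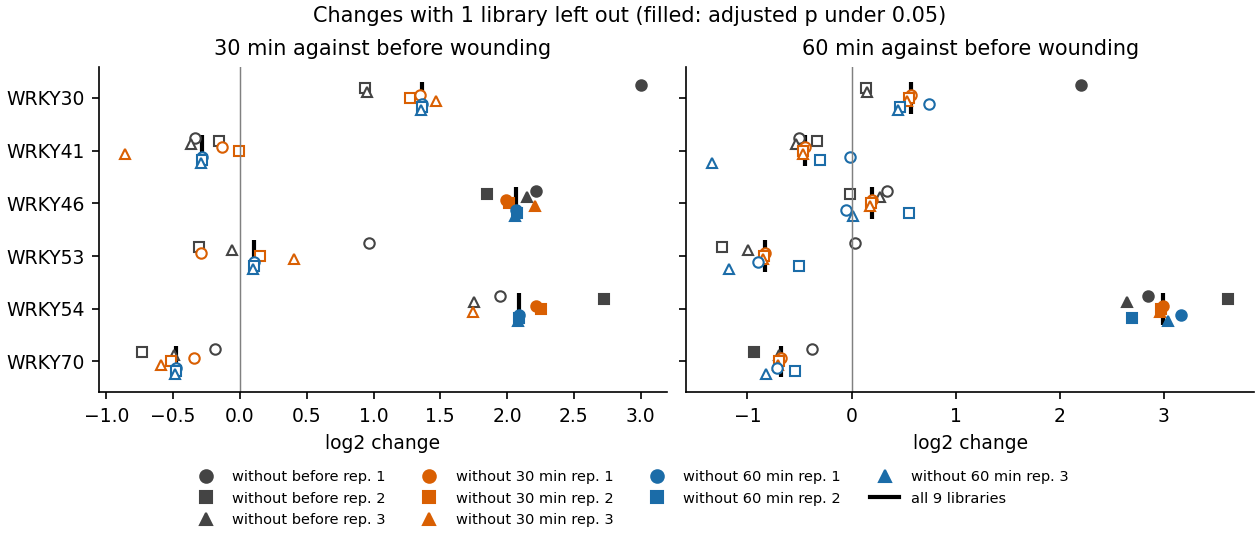
Log2 change of each gene from before wounding (x axis) at 30 min and at 60 min in fits that each left out 1 library (symbols, filled where the adjusted p was under 0.05), beside the value from all 9 libraries (black bar). WRKY30 moves from 1.36 to 3.00 at 30 min when before-wounding replicate 1 is left out, while WRKY46 at 30 min and WRKY54 at 60 min stay filled throughout.

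Levels of different genes were compared per length, as CPM per kb of exon. The exons of WRKY41 and WRKY53 overlap those of genes on the opposite strand, and how reads there were counted is not known. The places of these genes in the order are therefore uncertain. WRKY70 was the highest of the 6 in all 9 libraries, with 8.10 ± 2.98 CPM per kb before wounding, 5.78 ± 1.09 at 30 min and 5.06 ± 0.937 at 60 min (SD, n = 3). It held 67.1% to 73.4% of the summed level of the 6 genes before wounding, a share that was 38.2% to 51.9% in the 30 min libraries and 52.2% to 61.0% in the 60 min libraries. WRKY46 was the next highest in each 30 min library, with 2.65 ± 0.406 CPM per kb, and held 16.8% to 24.4% of the sum there, against 4.52% to 6.41% before wounding. WRKY54 held 0.638% to 3.53% of the sum before wounding and 10.7%, 22.3% and 10.1% in replicates 1, 2 and 3 at 60 min. Below WRKY70 the means before wounding ran from WRKY53 (1.42 ± 1.14 CPM per kb) over WRKY41 (1.05 ± 0.162), WRKY46 (0.626 ± 0.172) and WRKY30 (0.36 ± 0.425) to WRKY54 (0.154 ± 0.104). Neighbours in that order overlapped in their values except WRKY41 with WRKY46. Before-wounding replicate 3 gave that same order, and replicates 1 and 2 each gave another. At 30 min the next gene below WRKY46 was WRKY53, with 1.56 ± 0.732 CPM per kb and overlapping values. At 60 min WRKY54 had the highest mean below WRKY70, 1.26 ± 0.412, and WRKY30 the lowest, 0.545 ± 0.125, and the values of these extremes did not overlap while those of neighbours in the order did.

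Of the other 8 group III genes, WRKY52, which encodes the immune receptor RRS1 with a WRKY domain at its end, was the only gene to pass the filter on low counts. Its means were 11.5 ± 0.562, 12.5 ± 1.34 and 15.5 ± 4.18 CPM at the 3 times in order (SD, n = 3), with edgeR adjusted p-values of 0.692 and 0.106 against before wounding. WRKY38, WRKY55, WRKY62 and WRKY63 had at most 3 counts in any library. WRKY64, WRKY66 and WRKY67 had 0 counts in all 9 libraries, which allows levels of up to 0.114 to 0.209 CPM depending on the library.

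The 6 genes of group IIa and the WRKY33 relatives included 4 genes called higher at 30 min and 3 at 60 min, with none called lower at these times (median log2 change 2.35 and 1.11). WRKY18 reached 185 ± 42.1 CPM at 30 min from 6.23 ± 1.67, and WRKY40, its partner in repressing defence genes, which overlaps a gene of the other strand, reached 39.9 ± 7.94 from 5.27 ± 2.66 (SD, n = 3). WRKY40 then fell by 2.06 on the log2 scale between 30 and 60 min (edgeR adjusted p 0.00314). WRKY26 rose by 2.81 at 30 min and 3.05 at 60 min (adjusted p 0.000127 and 5.79e-05). In group IId, whose proteins bind calmodulin, 6 of 7 genes were tested, and 3 were called higher and 2 lower against time 0, at 30 min as at 60 min. There WRKY15 rose by 1.37 at 30 min (adjusted p 0.000998), WRKY21 by 0.93 at 60 min (0.000595), and WRKY7 fell by 1.54 at 30 min (0.000339). At 60 min WRKY15 had a change of 0.95 (adjusted p 0.00951), which missed the threshold without before-wounding replicate 2 (0.0622) or 60 min replicate 3 (0.0547). Over all genes tested 14.5% were called higher and 13.4% lower at 30 min, and 17.1% and 15.3% at 60 min. The counts of these subgroups stand beside those of group III without a test of the difference between subgroups.

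**Figure D5:**
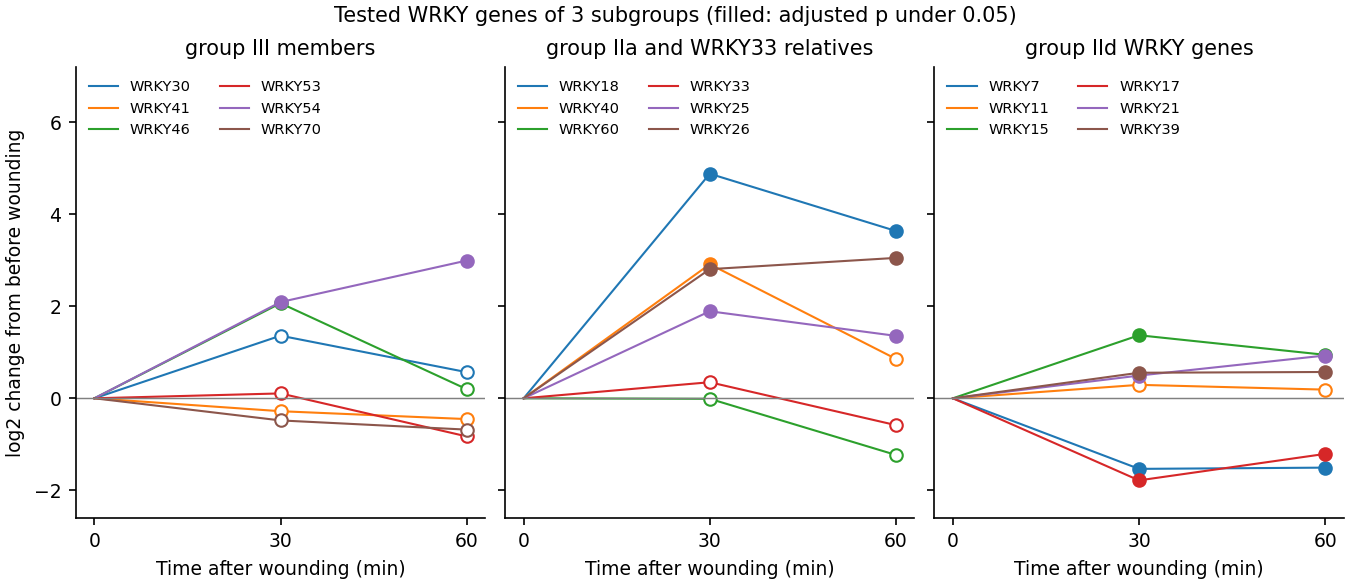
Log2 change from before wounding (y axis) at 30 and 60 min for each tested gene of group III, of group IIa with the WRKY33 relatives, and of group IId, filled where the adjusted p was under 0.05. Group III shows 2 filled genes at 30 min and 1 at 60 min.

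Genes of the pathways in which the group acts were counted from fixed lists. Over all genes tested 14.5% were called higher and 13.4% lower at 30 min. At 60 min these shares were 17.1% and 15.3%, and the counts of every list stand beside them. Of 16 genes of salicylic acid synthesis and signalling 15 were tested. At 30 min 5 of them were higher and 1 was lower, while 2 were higher and 5 lower at 60 min. The median log2 changes were 0.35 and 0.13. EDS5, the transporter that moves the precursor of salicylic acid out of the plastid, rose by 2.67 and 2.79 on the log2 scale at 30 and 60 min (edgeR adjusted p 0.000589 and 0.000354), from 0.361 ± 0.166 CPM, and it overlaps a gene of the other strand. NIMIN2, which binds the salicylic acid receptor NPR1, rose by 2.72 on the log2 scale at 30 min (adjusted p 0.00106). NPR3, a salicylic acid receptor and repressor, went from 20.4 ± 2.48 to 45.0 ± 11.6 and back to 22.2 ± 5.34 CPM (adjusted p 0.00114 at 30 min and 0.683 at 60 min). Its fall between 30 and 60 min was 1.02 on the log2 scale (edgeR adjusted p 0.0215). That last call was lost, among other settings, with only the groups compared in the fit (0.0569) and without 30 min replicate 1 (0.0582), 30 min replicate 2 (0.085), 60 min replicate 1 (0.127) or 60 min replicate 2 (0.0695). The 5 genes lower at 60 min, named after their values were seen, were PBS3, EDS1, PAD4, NPR4 and CBP60g, of which PBS3 and EDS1 kept the call with totals not scaled by TMM factors. PBS3, an enzyme of salicylic acid synthesis, had 22, 15 and 11 counts before wounding, 2, 7 and 1 at 30 min and 0, 4 and 1 at 60 min. Its log2 change was -2.09 at 30 min (adjusted p 0.0835) and -3.35 at 60 min (edgeR adjusted p 0.0135), the latter called whichever library was left out (adjusted p at most 0.0498).

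Among 7 defence output genes 4 were tested. At 30 min 1 was lower and 0 were higher, and 1 was called in each direction at 60 min. PR1, the usual marker of salicylic acid responses, had 0 counts in all 9 libraries. PR5, another such marker, fell by 2.1 at 30 min and by 2.83 at 60 min on the log2 scale (edgeR adjusted p 0.000208 and 2.13e-05), from 6.68 ± 1.17 CPM before wounding. VSP1, a jasmonate-induced storage protein gene, had 0, 3 and 1 counts before wounding, none above the detection floor, and rose to 0.893 ± 0.389 CPM at 60 min (edgeR adjusted p 0.00872). Its close relative VSP2, named after its values were seen, stood at 2.68 ± 2.12 CPM before wounding and 1.88 ± 0.471 at 60 min (log2 change -0.51, adjusted p 0.518). PDF1.2, a defensin gene induced by jasmonate with ethylene, had a log2 change of -1.37 at 60 min (adjusted p 0.233).

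Of 11 senescence genes 7 were tested. At 30 min 5 of these were called higher, at 60 min 3 were, and 1 was called lower at each time. The list also holds MEKK1, UPL5 and WHY1, taken up for their known links to WRKY53. MEKK1 and UPL5 were among the higher genes at 30 min, UPL5 also at 60 min, and WHY1 was the lower gene at both times. NAP, named after its values were seen, had log2 changes of -1.01 and -0.72 at 30 and 60 min (edgeR adjusted p 0.0714 and 0.171). SEN1, a gene induced by darkness and senescence, had 36.9 ± 9.16 CPM before wounding, 403 ± 20.8 in the 30 min leaves and 405 ± 123 in the 60 min leaves (edgeR adjusted p 3.11e-07 and 3.51e-07), and SEN4 from 19.8 ± 7.27 to 147 ± 38.3 CPM at 30 min. MEKK1, a kinase known to bind WRKY53, went from 13.4 ± 1.57 to 29.5 ± 4.30 CPM at 30 min and 15.3 ± 2.24 at 60 min (adjusted p 0.000276 and 0.428). SAG12, the classic marker of late senescence, had 0 counts in all 9 libraries. WRKY46, WRKY54 and WRKY70 also act with the brassinosteroid factor BES1 in growth and drought responses. Of 5 brassinosteroid genes 2 were higher and 1 lower at 30 min, against 1 and 1 at 60 min. BES1 itself, which overlaps a gene of the other strand, fell by 0.71 and by 1.37 on the log2 scale at 30 and 60 min (edgeR adjusted p 0.00272 and 1.68e-05), from 137 ± 3.21 CPM. BZR1, its close relative, had a change of 0.49 at 30 min (adjusted p 0.0426). That call was lost in 6 of the fits with a library left out, with adjusted p-values of up to 0.156. BZR1 too overlaps genes of the other strand. DWF4, a brassinosteroid synthesis gene, rose by 0.93 at 30 min and 1.05 at 60 min (adjusted p 0.00398 and 0.00157).

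The genes whose pattern was most like that of each member were taken by Pearson r of log2 CPM over the 9 samples, as a description. The highest r for WRKY46 were those of CRCK3 (0.984), TED7 (0.981) and AGP1 (0.979). AGP1, an arabinogalactan protein gene, went from 15.4 ± 4.22 to 58.0 ± 6.69 and 19.2 ± 6.42 CPM. For WRKY54 they were AT1G02160 (0.982), ENDO2 (0.980) and AT2G43530 (0.980), the last of which went from 14.0 ± 1.76 to 27.5 ± 4.97 and 41.2 ± 4.69 CPM. For WRKY30 they were HR4 (0.974), CYP707A3 (0.970), which encodes an abscisic acid hydroxylase, and XBAT34 (0.950). CYP707A3 stood at 1.55 ± 1.62, 4.93 ± 0.482 and 2.1 ± 0.610 CPM, with the same wide spread before wounding as WRKY30. For WRKY70 they were AT4G18460 (0.952), emb2734 (0.919) and SHM1 (0.918), for WRKY41 AT3G27970 (0.937), AT4G36080 (0.931) and LigB (0.916), and for WRKY53 AT1G09490 (0.917), YKT61 (0.913) and GRF7 (0.910). No member was among the 3 genes most like another member. Between members r over the 9 samples, which share library and depth, ran from -0.71 for WRKY54 with WRKY70 to 0.62 for WRKY30 with WRKY46, and it was -0.02 for WRKY41 with WRKY53.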

How the data were processed

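Polyadenylated RNA was sequenced from 9 leaf libraries, per the labels' protocols after TRIzol extraction and TruSeq RNA preparation. The authors deposited raw counts, 1 value per gene for each library, without normalization. The submitters' processing notes name FastQC 0.11.8, Trimmomatic 0.36, HISAT2 2.2.0, featureCounts and the TAIR10 build. Use of strand and the annotation are not given in the sources used here. Columns were matched by library name, with 0 columns of no sample. The table holds no coordinates, so loci were matched by identifier to RefSeq TAIR10.1 (26719 of 27206), and all TAIR10.1 coordinates and sequences come from that reference alone. filterByExpr kept 17622 genes with 99.96% of the counts. The quasi-likelihood F test of edgeR 4.0.16 (R 4.3.3, TMM factors, glmQLFit and glmQLFTest) was run on a single model of all 9 libraries whose term was the time group. Tests were two-sided, and Benjamini-Hochberg adjustment covered every gene tested, with a threshold of 0.05. The SE is the absolute log2 change divided by the square root of F, and 95% intervals use it with the degrees of freedom of the fit. CPM was computed by edgeR. DESeq2 1.42.0, other scalings and filters, fits of fewer libraries and a replicate block were alternatives. On simulated counts for 30 min against before wounding over 17149 genes, 58% of genes changed 2-fold and 98% of those changed 4-fold were recovered. The changed genes were drawn only from genes with a mean above about 1 CPM before wounding. All genes were given the common spread of the data, not their own. WRKY30, WRKY46 and WRKY54 lay below that level (0.464, 0.847 and 0.221 CPM), so these shares do not apply to them. The shares need not hold for WRKY41 and WRKY53 either, whose own spread was not used (SE 0.62 and 0.58 at 30 min). Replicates of a group differed by more than counting noise (chi-square per degree of freedom 6.91 to 41.1) and were kept apart.

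The members and all lists were chosen with earlier results of these data known, so no list was tested as a set. Genes named beside the 6 members were all other group III genes, the 3 tested genes of each list with the smallest F test p over the 3 times, and the 3 genes with the highest r with each member (log2 CPM, prior count 2). All other genes named were chosen after their values were seen. Protein sequences were not used here, and the planned protein comparison was not run.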

Additional observations from a re-analysis of the deposited data

Results flagged for a closer look

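WRKY46 had a change at 60 min that differed from its change at 30 min when both times were compared directly, with a log2 change of -1.87 between them (edgeR adjusted p 0.0391). All 3 libraries at 60 min lay below all 3 at 30 min. The adjusted p over the alternatives ran from 0.00187 with DESeq2 to 0.149 without 30 min replicate 1.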

How the results depend on the processing

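The direction of all 6 genes in all 3 comparisons was kept under other scaling, filter, tool and fit, and changed only with a library left out. With a threshold of 0.01 the called genes numbered 2981 at 30 min, 3494 at 60 min and 143 between them, and the members 1, 1 and 0. WRKY54 at 30 min (2.09) and WRKY46 between 30 and 60 min (-1.87) were then not called. DESeq2 called 681 genes between 30 and 60 min, and 2 members at 60 min, adding WRKY70 (-0.70). The fall of WRKY46 between these times missed the threshold, leaving 0 members, with library size alone (-1.78), with only the groups compared (-1.88) and with the replicate block (-1.96, adjusted p 0.0638). For a check of pairing, the mean of the time group was first subtracted from the log2 CPM of each gene. What remained had correlations of -0.37 to 0.16 between same-numbered libraries, over 0.1 in 2 of 9 pairs. By this measure 1 of 9 libraries correlated best with its own number. No pairing by replicate number was seen, but the subtraction ties the replicates of a group together, so the check is coarse. The block gave 223 called genes between 30 and 60 min and changed no other call of a member. Among other genes named, it ended the calls of NPR3 between 30 and 60 min (adjusted p 0.0608), BZR1 at 30 min (0.0774) and CBP60g at 60 min (0.0758). Leaving out each library in turn gave 161 to 480 called genes between 30 and 60 min (161 without 60 min replicate 1, 162 without 30 min replicate 1), 3474 to 5407 at 30 min and 4063 to 6057 at 60 min. In these fits 1 to 2 members were called at 30 min, 1 to 2 at 60 min and 0 to 1 between 30 and 60 min. The log2 changes then ran at 30 min from 0.94 to 3.00 for WRKY30, -0.31 to 0.97 for WRKY53 and 1.75 to 2.72 for WRKY54. At 60 min they ran from 0.13 to 2.21 for WRKY30, -0.055 to 0.55 for WRKY46, -1.25 to 0.032 for WRKY53 and -0.94 to -0.38 for WRKY70. Between 30 and 60 min they ran from -1.05 to 0.39 for WRKY41 and -2.12 to -1.52 for WRKY46. Directions turned for WRKY53 at 30 min (-0.31 without before-wounding replicate 2, -0.06 without before-wounding replicate 3, -0.29 without 30 min replicate 1) and at 60 min (0.032 without before-wounding replicate 1), for WRKY46 at 60 min (-0.02 without before-wounding replicate 2, -0.055 without 60 min replicate 1) and for WRKY41 between 30 and 60 min (0.39 without 30 min replicate 3, 0.26 without 60 min replicate 1). None of these was a called change. The causes were not tested. With a prior count of 0.5, at least 2 of the 3 genes most like each member were the same. Counts of 2 to 93 per library for every member except WRKY70 limit what can be detected.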

Other observations

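EDS1 and its partners, which act upstream in salicylic acid defence, are named after their values were seen. EDS1, a lipase-like regulator of immune signalling, went from 13.6 ± 1.80 CPM before wounding to 15.1 ± 0.905 at 30 min and 8.20 ± 0.611 at 60 min (SD, n = 3), with a log2 change of -0.72 at 60 min (edgeR adjusted p 0.00496). Between 30 and 60 min the log2 change of EDS1 was -0.88 (edgeR adjusted p 0.0148). That call was kept in 7 of the fits with a library left out, with adjusted p-values of up to 0.0966, and in 5 of 7 other settings. PAD4, its partner, had log2 changes of -0.85 and -0.95 at 30 and 60 min (edgeR adjusted p 0.031 and 0.0159). Its calls were lost with library size alone (adjusted p 0.0522 and 0.0571) and without before-wounding replicate 3 (0.123 and 0.0672), at 30 min also without before-wounding replicate 2 (0.0582), 30 min replicate 1 (0.0974) or 30 min replicate 3 (0.113), and at 60 min without 60 min replicate 1 (0.0628). SAG101, another partner of EDS1, moved the other way, with changes of 0.76 and 0.79 (edgeR adjusted p 0.0151 and 0.0103). These were lost without before-wounding replicate 3 (0.0683 and 0.0516), and the 30 min call also without 30 min replicate 3 (0.0662). ICS1, the synthesis enzyme of the hormone, had a log2 change of -0.36 at 60 min (adjusted p 0.192).

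WHY1, a known regulator of WRKY53, and UPL5, a ubiquitin ligase known to act on the WRKY53 protein, changed while WRKY53 itself had no called change. WHY1 fell by 0.85 at 30 min and by 1.07 at 60 min on the log2 scale (edgeR adjusted p 0.00387 and 0.000682). UPL5 rose by 0.69 and 1.00 (adjusted p 0.00675 and 0.000442).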
